A study of Mus musculus with 16 samples.

Results

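Transcript levels of 10 genes of hepatic insulin signalling were examined in mouse liver RNA sequencing. They are the insulin receptor Insr, the receptor substrates Irs1 and Irs2, the phosphoinositide 3-kinase subunit Pik3r1, the kinases Akt1 and Akt2, the transcription factor Foxo1, the secreted binding protein Igfbp1, the phosphatase subunit Ppp2ca and the atypical protein kinase Prkcz. The genes were chosen by name for their known places in the pathway, with earlier results of these data known at the time. They are 10 of the 53801 gene IDs in the count table, and all 10 were among the 14351 genes with enough counts to be tested.

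The study compared control mice with mice carrying a liver-specific knockout of Degs1, each on normal chow or on a high-fat diet, with 4 livers in each of the 4 groups. The groups are named here chow control (genotype control, normal chow), chow knockout (Degs1 knockout, normal chow), high-fat control (genotype control, high-fat diet) and high-fat knockout (Degs1 knockout, high-fat diet). The labels do not state the Cre driver, the deleted exons, the strain, sex and age of the mice, the length of feeding or whether the mice were fasted when the livers were taken. Each liver has its own animal number in the labels, and nothing else states that the 16 livers came from separate animals, so p-values measure the spread between these samples.

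Insulin binds its receptor, which phosphorylates the IRS proteins, and these recruit phosphoinositide 3-kinase. The lipid it makes brings Akt to the membrane, and active Akt phosphorylates FOXO1 and keeps it out of the nucleus, so that FOXO1 targets such as Igfbp1, Irs2 and the genes of glucose production are transcribed less. Ceramides are known to oppose Akt by way of protein phosphatase 2A, which removes its activating phosphates, and of protein kinase C zeta, which hinders its move to the membrane. Degs1 encodes the dihydroceramide desaturase that puts the double bond into ceramides. These steps act largely through protein phosphorylation, and the present values are transcript levels alone.

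Promoter sequence is shown for Igfbp1 and Irs2, the members that fell on the high-fat diet in control livers, and for Irs1, the close relative of Irs2 for which no change was called. RefSeq promoter entries of build GRCm38.p6, each 300 bases long with 250 before and 50 after the transcription start, were found for 9 of the 10 genes, with no entry for Insr. Each window below runs from 220 to 21 bases before the RefSeq start, upstream of the gene, and reads 5′ to 3′ on the gene's strand. Igfbp1 is at chr11:7197567-7197766 on the plus strand, Irs2 at chr8:11008950-11009149 on the minus strand and Irs1 at chr1:82291460-82291659 on the minus strand. Capitals mark the letters CAAAACA or their reverse complement TGTTTTG, the core of the insulin response sequence described for Igfbp1.
Igfbp1: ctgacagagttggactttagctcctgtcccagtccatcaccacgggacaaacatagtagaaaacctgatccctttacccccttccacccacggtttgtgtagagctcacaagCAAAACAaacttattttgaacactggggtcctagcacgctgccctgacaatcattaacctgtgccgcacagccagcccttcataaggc
Irs2: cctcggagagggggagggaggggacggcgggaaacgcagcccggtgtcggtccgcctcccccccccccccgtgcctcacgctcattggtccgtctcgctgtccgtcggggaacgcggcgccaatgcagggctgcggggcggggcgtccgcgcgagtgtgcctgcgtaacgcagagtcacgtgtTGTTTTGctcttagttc
Irs1: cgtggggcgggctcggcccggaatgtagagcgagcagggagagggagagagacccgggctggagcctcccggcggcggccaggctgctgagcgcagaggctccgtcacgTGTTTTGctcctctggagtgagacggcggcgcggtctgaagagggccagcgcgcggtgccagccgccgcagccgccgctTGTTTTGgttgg
The match began 108 bases before the RefSeq start in Igfbp1 and 37 bases before it in Irs2, and Irs1 held 2 matches, 111 and 32 bases before it. In the GENCODE annotation used for exon lengths, Irs2 starts at chr8:11008458, downstream of its RefSeq start. The Irs2 match lies farther from that GENCODE start. Among all 32851 RefSeq promoters of this length, 6.28% held CAAAACA or TGTTTTG on either strand. The forkhead element GTAAACA or its reverse complement TGTTTAC was present in 3.65% of them. Among the members' promoters it was found in 1 of the 2 Akt1 entries, 161 bases before the start. These matches describe letters in a window and were not tied to binding.

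Read depth ran from 11938596 to 23250885 counts per liver. Degs1, the targeted gene, was measured at 85.5, 80.4, 87.9 and 84.9 CPM (read counts scaled by the library total and edgeR's TMM factor) in chow controls and at 39.3, 39.3, 37.4 and 35.9 CPM in chow knockouts. It was at 60.2, 62.2, 101 and 70.3 CPM in high-fat controls and at 41.6, 28.1, 26.1 and 29.2 CPM in high-fat knockouts. The knockout and control ranges did not overlap on either diet. Degs1 fell by 1.16 on the log2 scale on chow and by 1.23 on the high-fat diet (adjusted p = 0.0123 and 0.00376, from edgeR's quasi-likelihood test with Benjamini-Hochberg adjustment over all tested genes). Hepatocyte markers were abundant in every liver, with Alb at 765839 counts or more. Of 10 fat and pancreas markers, the islet hormones Ins1 and Gcg were at 0 in all 16. Others were not, with up to 99 counts for Adipoq, 61 for Plin1 and 1104 for Plin4. The 10 markers summed to 0.631 to 4.67 CPM in chow controls and 2.19 to 4.97 CPM in chow knockouts. On the high-fat diet they summed to 6.16 to 26 CPM in controls and 5.44 to 57.4 CPM in knockouts. Plin4, the only 1 tested, rose on that diet in both genotypes. The source of these reads was not tested. The animal numbers fall into separate ranges for the 4 groups, so the groups and any handling that follows those numbers cannot be told apart.

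Libraries also differed in the share of counts assigned to sense-intronic and other transcripts still to be verified by experiment, called the unspliced share here. This share counts annotated genes of those kinds, and unspliced reads themselves were not measured. Chow controls had 0.0263% to 0.0411% and chow knockouts 0.0463% to 0.0878%, while high-fat controls spread from 0.0218% to 0.164% and high-fat knockouts lay at 0.162% to 0.191%. High-fat control 3, with the lowest share of the 16 livers (0.0218%), was also the lowest of the 16 for Insr, Irs1, Irs2 and Pik3r1. Chow knockout 1 was the highest of the 16 for Insr and Foxo1 and the lowest for Akt1. For the members other than Akt1 and Prkcz, values without both of these livers are given below for some or all comparisons between groups.

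Per kilobase of merged exon, the members spanned a wide range in chow control livers. Igfbp1 had the highest mean level at 66.4 ± 54.9 CPM per kb (SD, n = 4), with an SD that reached the means of Ppp2ca, Insr, Pik3r1 and Akt1. Ppp2ca followed at 20.4 ± 0.621 CPM per kb and Insr at 17.5 ± 2.62. Pik3r1 at 12.9 ± 1.85 and Akt1 at 12.4 ± 1.52 CPM per kb did not differ beyond their spread, and Akt2 stood at 9.05 ± 0.317. The substrates Irs2 and Irs1 followed at 7.05 ± 3.7 and 5.73 ± 1.68 CPM per kb, also within their spread. Foxo1 at 4.08 ± 1.55 and Prkcz at 2.79 ± 0.408 CPM per kb were the lowest. In high-fat knockouts the order from the top was Igfbp1 at 20 ± 3.46 CPM per kb, Insr at 16.3 ± 1.89 and Ppp2ca at 14.8 ± 1.5. Irs2 was there below Irs1 and Foxo1, at 3.68 ± 1.17 CPM per kb against 5.2 ± 0.366 and 4.82 ± 1.07. The order depends on the length used. Insr has 13746 bases of merged exons but a longest transcript of 9355, against 7490 and 7102 for Ppp2ca. Igfbp1 has 1525 by either. Divided by the longest transcript, Insr would stand above Ppp2ca in chow controls and above Igfbp1 in high-fat knockouts.

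**Figure D1:**
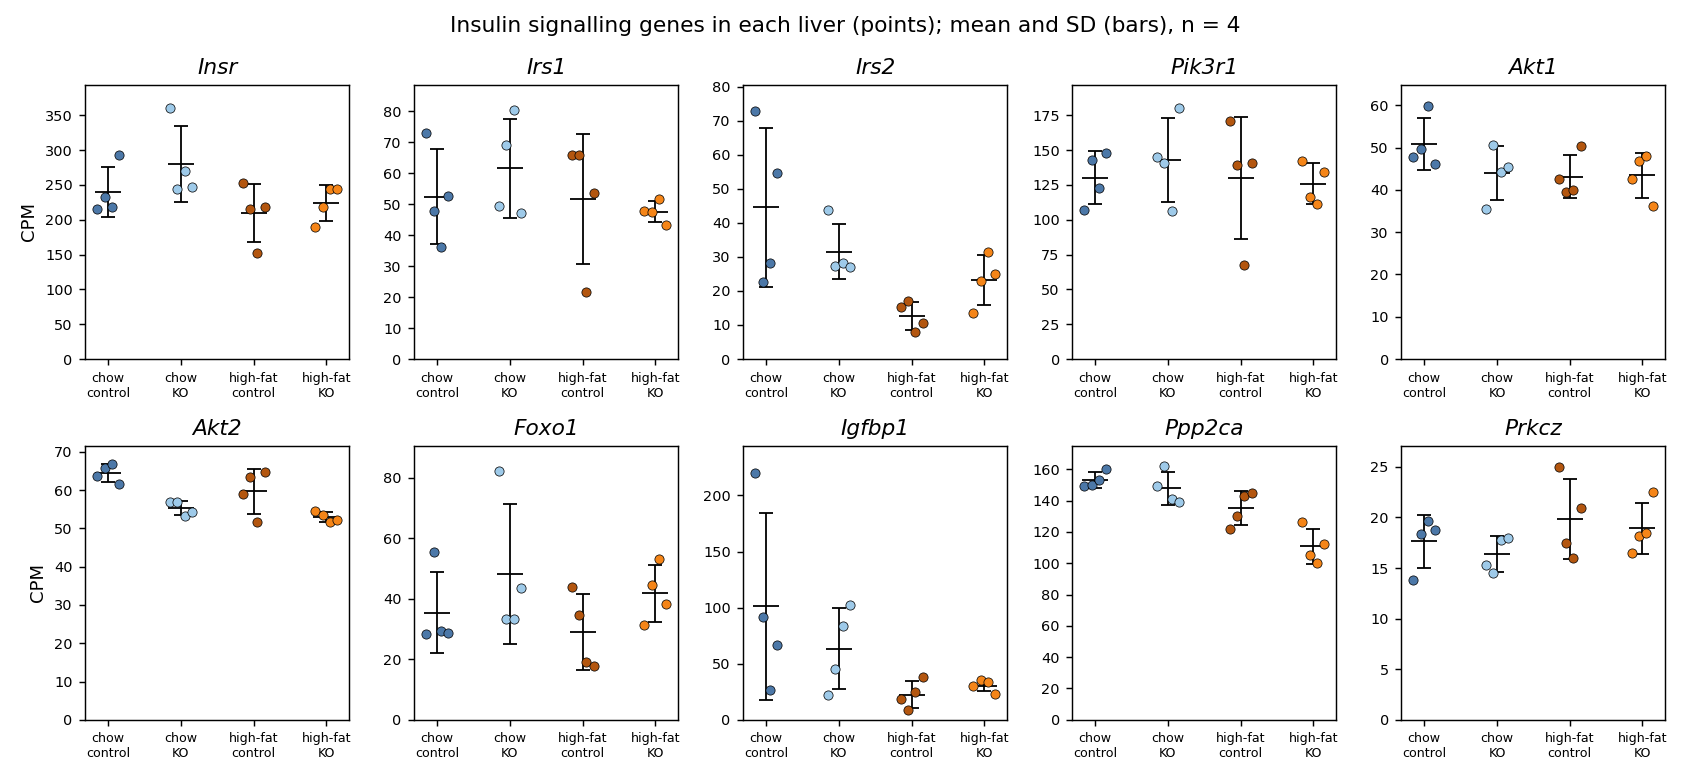
Level of each of the 10 genes in CPM (vertical axis, starting at 0) in every liver, by group along the horizontal axis, with points for the 4 livers of a group and bars for the mean and SD. Irs2 in high-fat controls lies between 8.05 and 17.1 CPM, below all 4 chow controls, and Ppp2ca in high-fat knockouts lies between 100 and 126 CPM, below all 4 chow knockouts.

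Across the design, 3 members changed between groups: Irs2 and Igfbp1 fell on the high-fat diet in control livers, and Ppp2ca fell on the high-fat diet in knockout livers. No member was called for the knockout on either diet. Unadjusted 95% intervals that left out no difference were those of Akt2 on chow (-0.43 to -0.01) and, on the high-fat diet, Irs2 (0.15 to 1.58) and Ppp2ca (-0.52 to -0.05). In control livers the high-fat diet lowered 2 of the 10 members at an adjusted p under 0.05, where 0.885% of all tested genes fell and 1.83% were called in either direction. In knockout livers it lowered 1 of 10, where 5.35% of all tested genes fell and 10.6% were called. The members' median log2 difference for diet was -0.189 in controls and -0.262 in knockouts, beside 0.00977 and 0.0219 over all tested genes. The 4 comparisons share groups in pairs (the chow controls serve for both the knockout on chow and the diet in controls, for example), so they are not independent of each other.

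**Figure D2:**
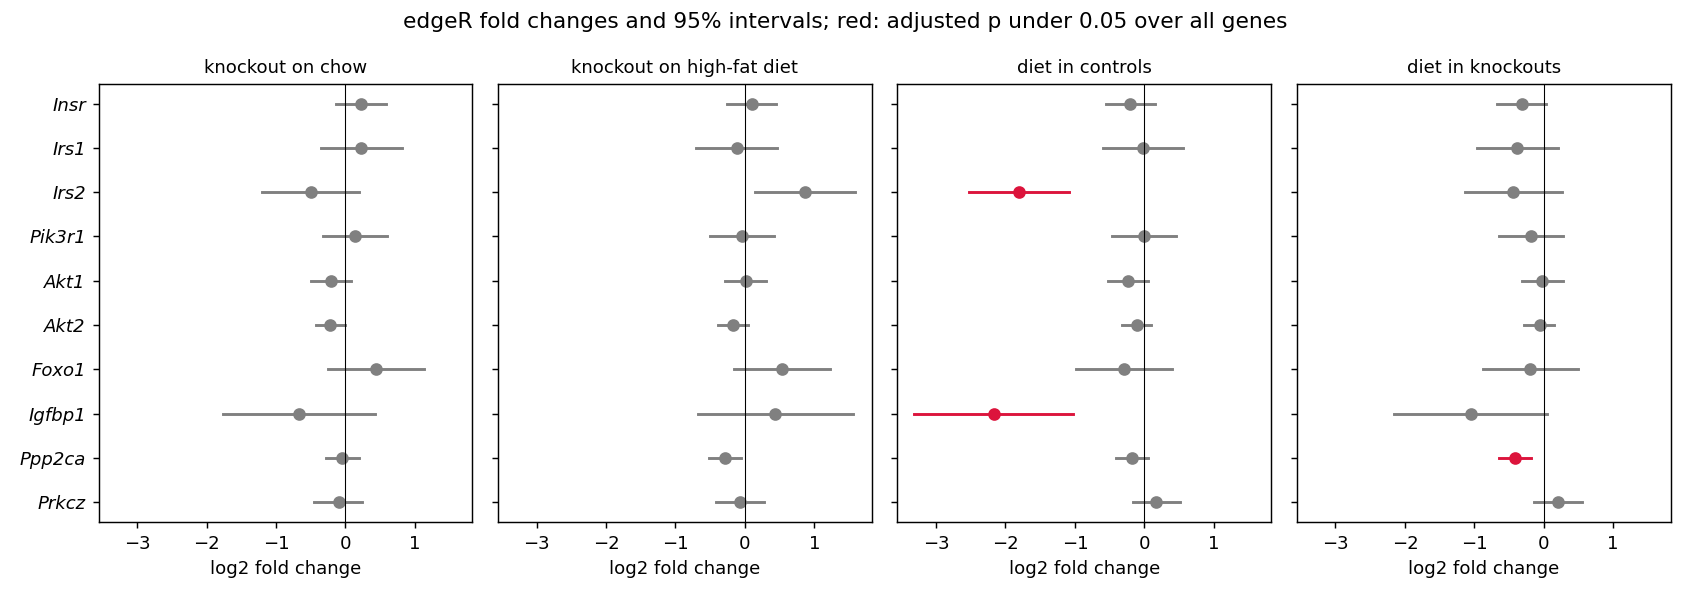
Log2 fold change of each member (horizontal axis) with its 95% interval in the 4 comparisons between groups, from edgeR over all tested genes, with red for adjusted p under 0.05. Irs2 at -1.81 and Igfbp1 at -2.17 are red for diet in controls, Ppp2ca at -0.42 is red for diet in knockouts, and no point is red in the 2 knockout comparisons.

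Insr, the receptor tyrosine kinase, was measured at 216, 233, 218 and 293 CPM in chow controls and at 361, 244, 270 and 247 CPM in chow knockouts. It was at 253, 215, 152 and 218 CPM in high-fat controls and at 189, 219, 244 and 244 CPM in high-fat knockouts. All 4 ranges overlapped, and the highest and lowest values came from chow knockout 1 and high-fat control 3. The fitted knockout difference was 0.23 on chow (95% interval -0.13 to 0.58) and 0.10 on the high-fat diet (-0.26 to 0.45) on the log2 scale. The diet difference was -0.20 (-0.55 to 0.16) in controls and -0.32 (-0.68 to 0.03) in knockouts, and none of the 4 was called. Leaving out chow knockout 1 and high-fat control 3, these 4 differences for Insr were 0.09, -0.01, -0.07 and -0.18, and none was called. Among 19 tested genes of the receptor level, which hold other receptors, adaptors and phosphatases of the receptor, 0 changed in any of the 4 comparisons by edgeR. At an unadjusted edgeR p under 0.05, 3 of these 19 were lower and 1 higher for diet in knockouts, beside 28.8% of all tested genes in either direction.

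Irs2, the substrate that insulin is known to repress through FOXO1, was measured at 72.7, 22.5, 28.3 and 54.7 CPM in chow controls. In high-fat controls it was at 15.2, 17.1, 8.05 and 10.6 CPM, and every one of these lay below every chow control. The mean fell from 44.6 ± 23.4 to 12.8 ± 4.15 CPM (SD, n = 4 each). Irs2 fell by 1.81 on the log2 scale (SE 0.34), to 0.286 times the chow level with a 95% interval of 0.174 to 0.472 (edgeR adjusted p = 0.0119). It ranked 65 of 14351 genes by p in this comparison. The exact permutation test on the 8 livers gave p = 0.0286 (two-sided), the smallest that 70 assignments of 4 against 4 allow. Groups that did not overlap, with the high-fat group lower, were found for 2 of the 10 members (Irs2 and Ppp2ca), beside 4.01% of all tested genes. In bulk liver, fewer cells of a type and less RNA per cell cannot be told apart. The fall was called in all 16 fits that left out 1 liver and, without high-fat control 3 and chow knockout 1, was -1.64 (edgeR adjusted p = 0.00966). Fitting the 2 control groups alone gave -1.77 with an edgeR adjusted p of 0.0718.

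In knockout livers Irs2 was at 43.8, 27.3, 28.3 and 26.9 CPM on chow and at 13.6, 22.8, 31.5 and 25 CPM on the high-fat diet. These ranges overlapped, and the diet difference was -0.44 on the log2 scale (95% interval -1.14 to 0.26, edgeR adjusted p = 0.404). Among high-fat livers, 3 of the 4 knockouts lay above all 4 controls, and high-fat knockout 1 lay within the control range. That knockout difference of 0.87 (SE 0.34, 95% interval 0.15 to 1.58) had an edgeR adjusted p of 0.158 and was not called. On chow the knockout difference was -0.50 (-1.20 to 0.19). Without high-fat control 3 and chow knockout 1 the knockout differences of Irs2 were 0.72 on the high-fat diet and -0.68 on chow, and neither was called. The difference between the diet responses of the genotypes, the interaction term, was 1.37 on the log2 scale (SE 0.47, 95% interval 0.37 to 2.36) with an unadjusted edgeR p of 0.0099 and an adjusted p of 0.301. It was not called. For the interaction 0 of the 10 members and 0% of all tested genes were called by edgeR, DESeq2 and limma-voom called 0 members too, and 1 member (Irs2) had an unadjusted edgeR p under 0.05, beside 11.3% of all tested genes. The unspliced share overlapped between high-fat controls (0.0218% to 0.164%) and high-fat knockouts (0.162% to 0.191%) in 1 control liver, and the Irs2 difference between them was 0.35 (edgeR adjusted p = 0.886) in a fit that held the share as a covariate. In that fit the Irs2 diet difference in controls was -2.28 (edgeR adjusted p = 0.00267) and in knockouts -1.05 (edgeR adjusted p = 0.0972).

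Irs1, the other substrate of the receptor in liver, was at 73.1, 47.7, 36.3 and 52.5 CPM in chow controls and at 65.7, 65.7, 21.5 and 53.6 CPM in high-fat controls. The ranges overlapped almost fully. The diet difference of Irs1 was -0.02 on the log2 scale in controls (95% interval -0.60 to 0.56) and -0.38 in knockouts (-0.96 to 0.21). In knockouts Irs1 ranged from 47.1 to 80.5 CPM on chow and from 43.3 to 51.5 CPM on the high-fat diet, and the knockout differences were 0.23 (-0.35 to 0.82) on chow and -0.12 (-0.70 to 0.46) on the high-fat diet. Without the same pair of livers Irs1 differed by 0.23 and -0.46 for diet in controls and knockouts and by 0.34 and -0.36 for the knockout on chow and on the high-fat diet, with none called. The ratio of Irs2 to Irs1 per exon length averaged 1.19 ± 0.376 in chow controls and 0.385 ± 0.11 in high-fat controls (SD, n = 4 each). Knockout livers had ratios of 0.796 ± 0.351 on chow and 0.707 ± 0.212 on the high-fat diet. The lowest chow control ratio was 0.684 and the highest high-fat control ratio 0.541, so those groups did not overlap, and high-fat knockouts at 0.413 to 0.884 overlapped all 3 other groups.

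**Figure D3:**
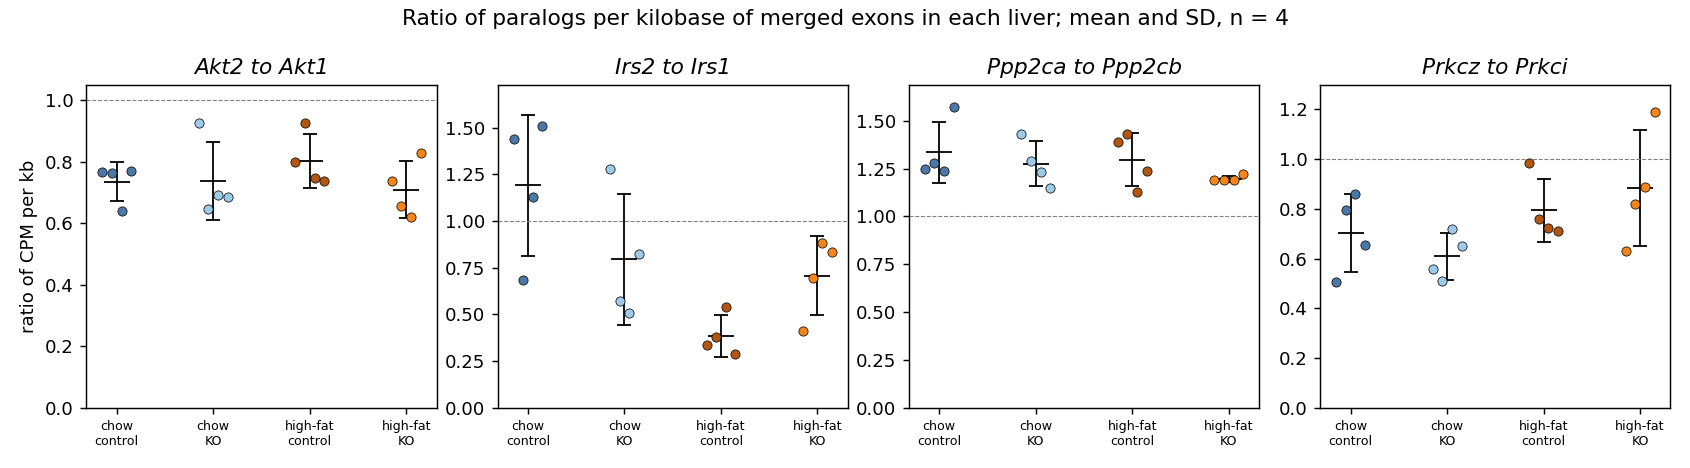
Ratio of levels per exon length within each liver (vertical axis, starting at 0) for 4 pairs of related genes, by group, with points for livers, bars for the mean and SD and a dashed line at a ratio of 1. The Irs2 to Irs1 ratio is 0.287 to 0.541 in high-fat controls and 0.684 to 1.51 in chow controls, and the group ranges of the Akt2 to Akt1 ratio overlap.

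Pik3r1, which encodes the regulatory p85 alpha subunit of phosphoinositide 3-kinase, was at 107 to 148 CPM in control and 106 to 180 CPM in knockout livers on chow. On the high-fat diet it was at 67.8 to 171 CPM in control and 111 to 142 CPM in knockout livers. The groups overlapped throughout, and the value of 67.8 CPM came from high-fat control 3. Its knockout differences were 0.14 on chow (95% interval -0.33 to 0.60) and -0.04 on the high-fat diet (-0.50 to 0.42) on the log2 scale. Its diet differences were -0.01 (-0.47 to 0.45) in controls and -0.19 (-0.65 to 0.28) in knockouts. Without high-fat control 3 and chow knockout 1 the Pik3r1 differences were 0.14 and -0.24 for the knockout and 0.20 and -0.18 for diet, in the same order, with none called. Among 14 other tested genes of phosphoinositide 3-kinase and its opposing lipid phosphatases, 2 rose and 1 fell on the high-fat diet in knockouts, where 10.6% of all tested genes were called, and 0 changed in the other 3 comparisons by edgeR. Pik3cd, the catalytic delta isoform known best from leukocytes, rose from 3.87 ± 1.5 to 9.86 ± 3.32 CPM (log2 difference 1.35, edgeR adjusted p = 0.014). Inpp5d, the leukocyte 5-phosphatase SHIP1, rose from 7.74 ± 1.35 to 13.9 ± 2.51 CPM (0.85, edgeR adjusted p = 0.0415). Pik3c2a, a class II lipid kinase, fell from 145 ± 25.6 to 95.7 ± 13.9 CPM (-0.60, edgeR adjusted p = 0.0299). Of the fits without 1 liver, Pik3cd lost its call without chow knockout 2, Inpp5d without any chow knockout or high-fat knockouts 1 to 3, and Pik3c2a without chow or high-fat knockouts 2 to 4. Summed Kupffer cell markers were 317 to 519 CPM in chow knockouts and 343 to 671 CPM in high-fat knockouts, with 0 of 8 called, and summed lymphocyte markers were 3.55 to 5.56 and 4.22 to 18.8 CPM, with 1 of 5 tested rising. Their part in the Pik3cd and Inpp5d values was not tested.

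Akt2, the Akt isoform that carries most of insulin's metabolic action in liver, was at 63.8, 65.9, 66.8 and 61.7 CPM in chow controls. In chow knockouts it was at 57, 57, 53.2 and 54.3 CPM, each below every chow control. The log2 difference was -0.22 (SE 0.10, 95% interval -0.43 to -0.01), the level being 0.858 times that of controls. The exact permutation p was 0.0286 and the edgeR adjusted p was 0.509, so Akt2 was not called. It was the only member whose groups did not overlap for the knockout on chow, where 2.9% of all tested genes had a lower knockout group with no overlap and 0.0139% were called. On the high-fat diet Akt2 was at 59, 63.5, 51.8 and 64.8 CPM in controls and at 54.6, 53.5, 51.7 and 52.2 CPM in knockouts. High-fat control 3, at 51.8 CPM, lay among the knockouts and the other 3 controls lay above them (log2 difference -0.17, 95% interval -0.39 to 0.04, edgeR adjusted p = 0.318). With that control and chow knockout 1 left out, the Akt2 difference was -0.22 on either diet and was not called. For the mean of the 2 knockout effects the difference was -0.20 (SE 0.07, 95% interval -0.35 to -0.05, edgeR adjusted p = 0.162). The call rate for that mean effect was 0.174% of all tested genes, and 0 of the 10 members were called by edgeR, DESeq2 or limma-voom, while 3 (Akt2, Foxo1 and Ppp2ca) had an unadjusted edgeR p under 0.05, beside 20.7%.

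Akt1, the widely expressed isoform, ranged from 46 to 59.9 CPM in control and 35.4 to 50.6 CPM in knockout livers on chow. On the high-fat diet its ranges were 39.4 to 50.4 CPM in controls and 36.2 to 48 CPM in knockouts. Its knockout differences were -0.21 on chow (95% interval -0.50 to 0.08) and 0.01 on the high-fat diet (-0.28 to 0.31) on the log2 scale. Its diet differences were -0.24 in controls (-0.53 to 0.05) and -0.02 in knockouts (-0.31 to 0.28). Per exon length Akt2 was below Akt1 in each group, with a mean ratio on chow of 0.736 ± 0.0639 in controls and 0.738 ± 0.126 in knockouts, and on the high-fat diet of 0.803 ± 0.0871 and 0.71 ± 0.0929 (SD, n = 4 each). In the list of Akt kinases and mTOR, which holds the upstream kinases and the mTOR complexes, 0 of 22 tested genes changed in any of the 4 comparisons by edgeR. At an unadjusted edgeR p under 0.05, 3 were lower and 1 higher for diet in knockouts, beside 28.8% of all tested genes in either direction. The lowest p in that list belonged to Them4, an Akt-binding protein, at -0.70 for the knockout on the high-fat diet (edgeR adjusted p = 0.0953).

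Of 12 tested transcripts of Akt substrates, 1 changed with the diet in controls and 2 in knockouts, beside 1.83% and 10.6% of all tested genes. Acly, the citrate lyase that feeds fat synthesis, fell on the high-fat diet in controls from 860 ± 200 to 372 ± 64.9 CPM (log2 difference -1.21, edgeR adjusted p = 0.0224). In knockouts it went from 695 ± 238 to 415 ± 116 CPM, a difference of -0.74 that was not called (edgeR adjusted p = 0.0676). In knockouts on the high-fat diet Tbc1d1, a Rab regulator of glucose transport, rose (0.46, edgeR adjusted p = 0.0471) and Ybx1, an RNA-binding protein, fell from 148 ± 25.1 to 97.8 ± 3.82 CPM (-0.60, edgeR adjusted p = 0.014). The Tbc1d1 call was kept in only 4 of the 16 fits without 1 liver, those without chow control 3 or high-fat control 1, 3 or 4. The Ybx1 call was lost without chow or high-fat knockout 2, and the Acly call without chow control 2 or 4 or high-fat control 1 or 4.

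Foxo1, the transcription factor that Akt restrains, was at 28.3, 55.4, 29.3 and 28.5 CPM in chow controls and at 82.1, 33.3, 33.4 and 43.4 CPM in chow knockouts. It was at 43.9, 34.6, 19.2 and 17.8 CPM in high-fat controls and at 31.2, 44.4, 53.1 and 38.2 CPM in high-fat knockouts. All groups overlapped, and in the chow groups 1 liver each (chow control 2 and chow knockout 1) stood well above the rest. The knockout difference was 0.44 on chow (95% interval -0.25 to 1.13) and 0.53 on the high-fat diet (-0.15 to 1.22) on the log2 scale. Their mean was 0.49 (SE 0.23) with an unadjusted edgeR p of 0.0497 and an adjusted p of 0.242. In a fit that held the unspliced share as a covariate, the Foxo1 mean difference was 0. Its diet differences were -0.29 (-0.98 to 0.40) in controls and -0.20 (-0.88 to 0.49) in knockouts. Without chow knockout 1 and high-fat control 3, the Foxo1 knockout differences were 0.07 on chow and 0.40 on the high-fat diet and the diet differences -0.14 and 0.19, with none called.

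Igfbp1, the secreted IGF-binding protein that insulin represses through FOXO1, had the highest coefficient of variation of the 10 members among chow controls, at 82.7%. It was at 220, 91.3, 26.8 and 66.7 CPM in chow controls and at 18.1, 8.85, 25 and 38 CPM in high-fat controls. The ranges overlapped in 1 pair of values only, since chow control 3 (26.8 CPM) lay below high-fat control 4 (38 CPM). Igfbp1 fell by 2.17 on the log2 scale (SE 0.54), to 0.223 times the chow level with a 95% interval of 0.101 to 0.492 (edgeR adjusted p = 0.0484). The exact permutation test gave p = 0.0571. The call was kept in only 4 of the 16 fits that left out 1 liver, those without chow control 3, chow knockout 1, high-fat control 3 or high-fat control 4. Without chow control 1, the highest liver, the Igfbp1 difference was -1.45 (edgeR adjusted p = 0.146), and leaving out both chow knockout 1 and high-fat control 3 it was -2.21 (edgeR adjusted p = 0.0246). In knockouts Igfbp1 was at 22.1, 45.3, 83.4 and 102 CPM on chow and at 29.9, 35.3, 33.5 and 23.4 CPM on the high-fat diet, which overlapped. That diet difference was -1.05 (95% interval -2.16 to 0.05, edgeR adjusted p = 0.197), and the interaction term was 1.11 (-0.44 to 2.67). The knockout differences were -0.67 on chow (-1.77 to 0.42) and 0.44 on the high-fat diet (-0.67 to 1.55).

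Other genes that FOXO1 is known to induce fell on the high-fat diet in knockouts in 3 of 14 cases, and 0 rose, where 5.35% of all tested genes fell. G6pc, the last step of glucose production, fell from 804 ± 496 to 125 ± 60.7 CPM (log2 difference -2.68, edgeR adjusted p = 0.00906). Pck1, an early step of the same route, fell from 3790 ± 947 to 1570 ± 383 CPM (-1.27, edgeR adjusted p = 0.00229), and Tat, a tyrosine aminotransferase, fell by 1.41 on the log2 scale (edgeR adjusted p = 0.0112). In controls none of the 3 passed the threshold, with -0.42 for G6pc, -0.64 for Pck1 and -0.89 for Tat (edgeR adjusted p = 0.76, 0.103 and 0.142). The interaction was called for 0 of the 14 genes, so a difference between the genotypes in these responses was not shown. The list's median in knockouts was -0.0346, and 7 of the 14 genes were above 0.

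Genes that insulin is known to induce moved in both directions. In knockouts on the high-fat diet, 2 of 11 tested genes rose and 1 fell, beside 10.6% of all tested genes called. Srebf1, the transcription factor of fat synthesis, was among those that rose, and Elovl6, a fatty acid elongase, fell. The list's median for diet was -0.673 in controls and -0.316 in knockouts, beside 0.00977 and 0.0219 over all tested genes. Srebf1 went from 154 ± 26.3 to 415 ± 41.9 CPM (1.43, edgeR adjusted p = 0.00309) and Elovl6 from 224 ± 112 to 96.1 ± 33.3 CPM (-1.22, edgeR adjusted p = 0.0286). The Elovl6 call was lost without chow knockout 2 or 4 or high-fat knockout 2, 3 or 4. In controls Elovl6 went from 236 ± 25.4 to 104 ± 26.9 CPM on the diet (-1.19, edgeR adjusted p = 0.0753). The control difference of Srebf1 was -0.04 (edgeR adjusted p = 0.964), and 0 of the 11 genes were called there. The interaction was called for 0 of the 11, so a difference between the genotypes was not shown. Srebf1 was also the only pathway gene that changed with the knockout on chow, where it fell from 490 ± 174 CPM in controls to 154 ± 26.3 CPM (-1.67, edgeR adjusted p = 0.0123). That call was lost without chow control 3 or any 1 of the 4 chow knockouts, without chow knockout 1 and high-fat control 3 together, with the unspliced share in the fit, and when only the 2 chow groups were fitted.

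Among 8 tested genes of the IGF system other than Igfbp1, 2 fell on the high-fat diet in knockouts, where 5.35% of all tested genes fell. Igf1, the growth factor that liver secretes, fell from 612 ± 41.7 to 374 ± 57.9 CPM (log2 difference -0.71, edgeR adjusted p = 0.00439), and was at 543 ± 28.4 and 400 ± 34.2 CPM in controls on the 2 diets (-0.44, edgeR adjusted p = 0.08). Igfbp2, another insulin-responsive binding protein, fell from 427 ± 71.1 to 160 ± 93.6 CPM in knockouts (-1.42, edgeR adjusted p = 0.0266). In controls its diet difference was -0.92 and was not called (edgeR adjusted p = 0.215). The Igfbp2 call was lost without chow knockout 2, 3 or 4 or high-fat knockout 1, 2 or 4.

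Ppp2ca, the main catalytic subunit of protein phosphatase 2A, was at 149, 162, 141 and 139 CPM in chow knockouts. In high-fat knockouts it was at 126, 105, 100 and 112 CPM, each below every chow knockout. The mean fell from 148 ± 10.4 to 111 ± 11.2 CPM (SD, n = 4 each). Ppp2ca fell by 0.42 on the log2 scale (SE 0.11), to 0.748 times the chow level with a 95% interval of 0.636 to 0.88 (edgeR adjusted p = 0.0256, exact permutation p = 0.0286). It ranked 813 of 14351 by p in a comparison where 10.6% of all genes were called, and 12.4% of genes had a lower high-fat knockout group with no overlap, as Ppp2ca alone did among the 10 members. In controls it was at 149, 150, 153 and 160 CPM on chow and at 122, 130, 143 and 145 CPM on the high-fat diet. These groups did not overlap either (exact permutation p = 0.0286), but the difference of -0.18 (95% interval -0.41 to 0.05) was not called (edgeR adjusted p = 0.439). The interaction term of Ppp2ca was -0.24 (-0.57 to 0.09, edgeR adjusted p = 0.597), so the diet responses were not shown to differ between genotypes. High-fat knockouts lay below high-fat controls in all but 1 overlap, since high-fat knockout 1 (126 CPM) exceeded high-fat control 1 (122 CPM). That difference was -0.28 (95% interval -0.52 to -0.05, edgeR adjusted p = 0.156), and on chow it was -0.05 (-0.28 to 0.19).

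Ppp2ca levels and unspliced shares were set side by side within groups. Among high-fat controls, the livers with shares of 0.164% and 0.123% had 122 and 130 CPM, and those with shares of 0.0218% and 0.0512% had 143 and 145 CPM. Chow knockouts did not follow that order, with 139, 162, 141 and 149 CPM at shares of 0.0463%, 0.0491%, 0.0825% and 0.0878%. High-fat knockouts spanned 100 to 126 CPM at shares of 0.162% to 0.191%. The shares of chow knockouts and high-fat knockouts did not overlap, so diet and share cannot be told apart in those groups by their values alone. In the fit with the share as a covariate, the Ppp2ca diet difference in knockouts was -0.31 (edgeR adjusted p = 0.143). Scaling by library totals alone, under which the median of all genes was 0.363 in place of 0.022, left it at -0.07 (edgeR adjusted p = 0.669), and the call was lost when any of chow knockouts 2 and 4 or high-fat knockouts 2, 3 and 4 was left out. Without chow knockout 1 and high-fat control 3 it was -0.41 (edgeR adjusted p = 0.0148).

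**Figure D4:**
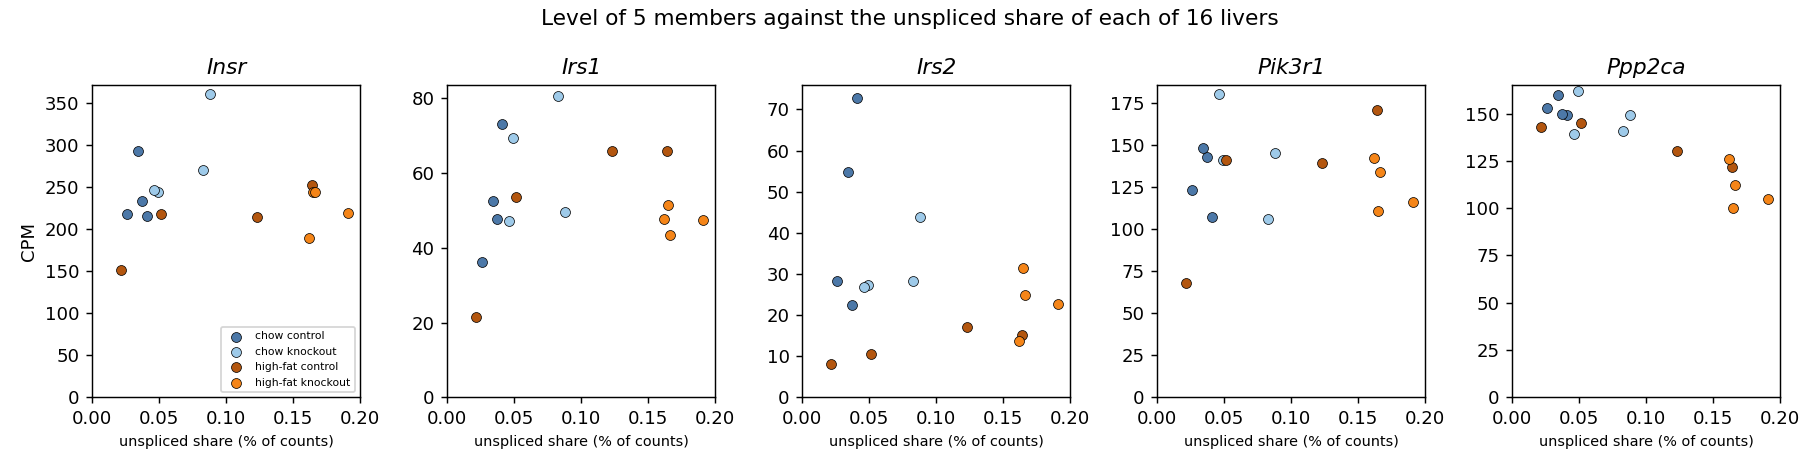
Level of 5 members in CPM (vertical axis, starting at 0) against the unspliced share of each of the 16 livers in percent of counts (horizontal axis), coloured by group. High-fat knockouts lie at shares of 0.162% to 0.191% with Ppp2ca at 100 to 126 CPM, and high-fat control 3, at a share of 0.0218%, is the lowest point for Insr, Irs1, Irs2 and Pik3r1.

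In the list of PP2A subunits and inhibitors, 4 of 19 tested genes fell and 0 rose on the high-fat diet in knockouts, with a list median of -0.221, where 5.35% of all tested genes fell. Set and Anp32a, which encode inhibitor proteins of the phosphatase, fell from 71.1 ± 9.51 to 50 ± 1.73 CPM and from 69.7 ± 4.75 to 48 ± 4.14 CPM (edgeR adjusted p = 0.0142 and 0.0323). The regulatory B56 subunits Ppp2r5a and Ppp2r5c fell from 258 ± 33.3 to 185 ± 13.9 CPM and from 57.6 ± 5.12 to 44.4 ± 3.28 CPM (edgeR adjusted p = 0.0259 and 0.0449). The genes that fell thus include inhibitors as well as subunits of the enzyme. In controls all 4 were also lower on the high-fat diet and not called. The differences there were -0.36 for Set, -0.24 for Anp32a, -0.25 for Ppp2r5a and -0.31 for Ppp2r5c. Their edgeR adjusted p were 0.121, 0.457, 0.338 and 0.175, and the list median in controls was 0.0435. The interaction was called for 0 of the 19 genes. The count of 4 ranged from 0 to 5 when 1 liver was left out, being 0 without chow knockout 2 or high-fat knockout 2, and was 6 without chow knockout 1 and high-fat control 3 together. Of these 4, Ppp2r5c was called in only 3 of the 16 fits without 1 liver, Anp32a in 8, Ppp2r5a in 11 and Set in 14. The Anp32a call was lost when any 1 of the chow or high-fat knockouts was left out. Ppp2cb, the second catalytic gene, was at 22.8 ± 1.84 CPM in chow knockouts and 18.1 ± 1.86 CPM in high-fat knockouts and was not called. Per exon length the ratio of Ppp2ca to Ppp2cb on chow was 1.34 ± 0.158 in controls and 1.27 ± 0.118 in knockouts, and on the high-fat diet 1.3 ± 0.138 and 1.2 ± 0.015.

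Prkcz, the atypical protein kinase C through which ceramide is thought to restrain Akt, was at 13.8 to 19.6 CPM in control and 14.5 to 18 CPM in knockout livers on chow. On the high-fat diet it was at 16 to 25 CPM in controls and 16.5 to 22.5 CPM in knockouts, and all groups overlapped. Its knockout differences were -0.10 on chow (95% interval -0.45 to 0.24) and -0.07 on the high-fat diet (-0.41 to 0.27) on the log2 scale. Its diet differences were 0.17 (-0.17 to 0.51) in controls and 0.20 (-0.14 to 0.55) in knockouts. Per merged exon length Prkcz was 0.704 ± 0.157 times its relative Prkci in chow controls and 0.882 ± 0.233 times in high-fat knockouts. Divided by the longest transcript instead, these ratios were 0.924 ± 0.206 and 1.16 ± 0.305, so which of the pair is higher depends on the length used. Of 16 other tested kinase C genes and partners, 1 fell and 0 rose on the high-fat diet in knockouts, beside 5.35% of all tested genes that fell. That gene was Pkn2, a kinase of the related PKN family, at -0.42 (edgeR adjusted p = 0.0394), and its call was kept in only 4 of the 16 fits without 1 liver, those without chow control 1 or 4 or high-fat control 1 or 3. Prkcd and Prkce, the kinases more often tied to diacylglycerol, were at 0.74 and 0.50 for the knockout on the high-fat diet and were not called (edgeR adjusted p = 0.112 and 0.11).

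Counted over all lists, 135 other pathway genes were tested. The high-fat diet in knockouts changed 18 of them, 5 up and 13 down, beside 10.6% of all tested genes in either direction. Pck1, Tat, Srebf1 and Igf1 were called for diet in knockouts in all 16 fits without 1 liver and in the 12 other alternatives. When the unspliced share was held in the fit, Ppp2r5a and Anp32a were still called as well, and the other genes named for that comparison were not. The diet in controls and the knockout on chow changed 1 each by edgeR, beside 1.83% and 0.0139% of all tested genes. The knockout on the high-fat diet changed 0 by edgeR, 6 by DESeq2 and 0 by limma-voom. Over all 14351 tested genes, edgeR called 0.111% there, DESeq2 633 genes and limma-voom 31 genes. For that comparison 0 of the 10 members were called as well, by edgeR, DESeq2 and limma-voom alike, and 2 of them (Irs2 and Ppp2ca) had an unadjusted edgeR p under 0.05, beside 21.4% of all tested genes. For the knockout on chow 0 members were called by the 3 tools and 1 (Akt2) had an unadjusted edgeR p under 0.05, beside 9.52%. Beside the 18 genes, summed hepatocyte markers were 135000 to 162000 CPM in chow knockouts and 75800 to 96600 CPM in high-fat knockouts, with 1 of 8 called. Of these 8 markers, 0 had a log2 difference above 0, and their median was -0.456. At an unadjusted edgeR p under 0.05, 6 of the 8 were lower, beside 28.8% of all tested genes in either direction. Summed stellate cell markers were 626 to 670 and 672 to 936 CPM, with 3 of 9 rising, and nuclear RNAs were 786 to 1510 and 3620 to 4320 CPM, with 2 of 3 tested rising. The part of these in the list results was not tested.

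**Figure D5:**
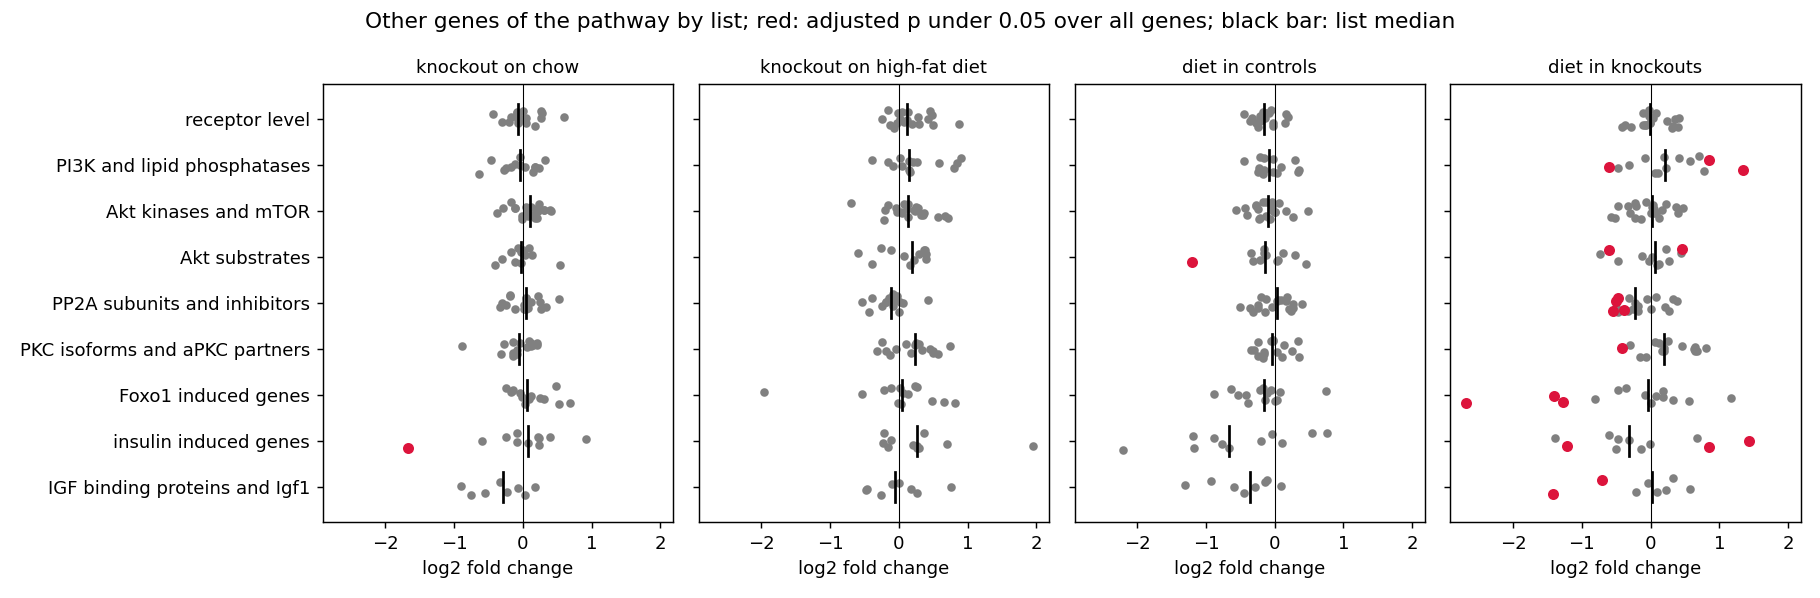
Log2 fold change (horizontal axis) of each tested gene in 9 lists of other pathway genes, in the 4 comparisons between groups, with red for adjusted p under 0.05 over all genes and a black bar for the list median. Red points number 18 for diet in knockouts, with G6pc at -2.68 as the lowest, 1 each for diet in controls and knockout on chow, and 0 for knockout on the high-fat diet.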

How the data were processed

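Liver RNA from 16 mice was sequenced after TruSeq Stranded library preparation with Ribo-Zero Gold, per the labels' protocols. Raw counts of reads for each Ensembl gene make up the deposited table. Per the submitters' processing notes, STAR 2.5.4a, featureCounts 1.5.1 and DESeq2 were used with build GRCm38. What each tool did and how strand and multiply mapped reads were treated were not given in the sources used here. Exons of Irs1, Irs2, Foxo1 and Ppp2ca overlap antisense genes, which held 0 to 4 counts per liver. Symbols and exon lengths came from GENCODE annotation of GRCm38 (53706 of 53801 IDs matched), and promoters from RefSeq. All 16 columns matched a sample label, with 0 left over.

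Genes were filtered with filterByExpr (minimum count 10, 14351 kept), scaled by TMM and fitted with edgeR 4.0.16 (R 4.3.3), as 4 group means over all 16 livers, with the quasi-likelihood test and Benjamini-Hochberg adjustment at 0.05. Intervals are 95% from the same fit. The interaction and the mean knockout effect came from that fit. Single genes were also compared by exact two-sided permutation of log2(CPM + 1). A count of 3 equals 0.135 to 0.293 CPM, which limits counting error only. Alternatives included DESeq2 1.42.0, limma-voom 3.58.1, other scalings and filters, left-out livers and covariates. Genes named with test values are the members, Degs1, every listed gene that was called (except 1 not reported here) and up to 3 per list with the smallest p, and for Igfbp1 and Irs2 the 3 genes of highest correlation. Members and lists were chosen with earlier results of these data known.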

Additional observations from a re-analysis of the deposited data

Results flagged for a closer look

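Members were screened, group by group, for a liver far from the other 3, which chance gives in about 1 in 20 groups. Of 40 groups of 4 livers, 2 had such a liver. Irs2 in chow knockout 1 was at 43.8 CPM, with the others at 26.9 to 28.3 CPM. Foxo1 in chow control 2 was at 55.4 CPM, with the others at 28.3 to 29.3 CPM.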

How the results depend on the processing

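No paired analysis was possible because no animal number is shared between groups. The count of members called for diet in controls was 2 and became 1 with upper-quartile factors, library totals alone, limma-voom or a covariate for the unspliced share, 0 with only the groups compared, and 1 to 2 with 1 liver left out. In knockouts on the 2 diets the count of 1 became 0 with upper-quartile factors, 2 with the unspliced share as a covariate (Insr and Irs1, not Ppp2ca) or with length and GC offsets (Insr and Ppp2ca), and 0 to 1 with 1 liver left out. Library totals alone called Prkcz (0.54) in place of Ppp2ca. With no filter, counts were 1 for the knockout on chow (Igfbp1), 1 for the knockout on the high-fat diet (Irs2), 2 for the interaction (Irs2 and Igfbp1) and 1 for the mean knockout effect (Foxo1). For diet in knockouts that fit called Igfbp1 (-1.04, edgeR adjusted p = 5.53e-07) and not Ppp2ca (-0.40, edgeR adjusted p = 0.203). In it each gene's spread was set by the trend over all genes alone.

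Uncalled signs turned in these fits, leaving aside turns smaller than 1 SE. With the unspliced share as a covariate, Irs1 was -0.20, Pik3r1 -0.09 and Foxo1 -0.01 for the knockout on chow, and Insr -0.19 for the knockout on the high-fat diet. For the mean knockout effect it gave Insr -0.09, Irs1 -0.45, Irs2 -0.27, Pik3r1 -0.21 and Foxo1 0. With library totals alone, Akt2 was 0.02 and Prkcz 0.12 for the knockout on the high-fat diet, and Akt2 0.02 for diet in controls. In knockouts the diet difference became 0.02 for Insr, 0.16 for Pik3r1, 0.32 for Akt1, 0.28 for Akt2 and 0.16 for Foxo1. With length and GC offsets, Insr was -0.17 and Akt1 -0.13 for the knockout on the high-fat diet, Akt2 0 for diet in controls, Akt1 -0.10 and Akt2 -0.25 for the interaction, and Insr -0.04 for the mean effect. Quality weights gave Igfbp1 0.27 for the mean effect. Foxo1 for diet in knockouts was 0.19 without chow knockout 1, alone or with high-fat control 3, and ranged from -0.33 to 0.19 over the fits without 1 liver. Igfbp1 for the knockout on chow was 0.04 without chow control 1 and ranged from -1 to 0.04. The cause was not tested.

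For diet in knockouts, genes called over the whole table were 748 higher and 768 lower, 1028 and 447 with upper-quartile factors, and 3138 and 182 with library totals alone. The 18 other pathway genes called there became 26 with DESeq2, 36 with library totals alone, 43 with quality weights, 32 with only the groups compared and 34 without high-fat control 3 and chow knockout 1. Over the whole table, the count of 1516 became 2269, 3320, 4345, 2793 and 3273 in the same order, so it rose in each of these fits too. They tested 14351 genes, except 13769 with only the groups compared and 14604 when the pair of livers was left out. Other fits lowered the whole-table count. It was 873 of 14351 with the unspliced share as a covariate, 535 of 14684 without chow knockout 2 and 465 of 14535 without high-fat knockout 2. Of the 18 pathway genes, only G6pc, Pck1, Tat, Srebf1 and Igf1 stayed called without chow knockout 2. The other pathway genes called for diet in controls, 1 in the report, became 7 with DESeq2 and 16 with a covariate for the unspliced share. The whole-table count for diet in controls rose as well, from 262 to 794 and 1157 of 14351.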

Other observations

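The genes whose level followed Igfbp1 most closely across the 16 livers, among 10377 genes with a mean of at least 2 on the log2 CPM scale, were Nid2 (Pearson r = 0.837, Spearman rho = 0.812), Klf2 (r = 0.817, rho = 0.615) and Bin1 (r = 0.816, rho = 0.826). After the group means were removed, r was 0.711, 0.813 and 0.723, and without the 2 livers farthest from the median it was 0.836, 0.576 and 0.677. For Irs2 they were Mov10 (r = 0.844, rho = 0.759), Pak2 (r = 0.81, rho = 0.65) and Cep120 (r = 0.796, rho = 0.729), with r of 0.679, 0.748 and 0.64 after the group means were removed. All were picked as the highest of 10377 values over livers that differ in group and depth, so they are a description and carry no test. Igfbp1 was not among the 3 genes for Irs2, and Irs2 was not among the 3 for Igfbp1.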
